A study of Mus musculus with 16 samples.

Results

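Solute carriers are the membrane proteins that move nutrients, ions, metals and metabolites across the plasma membrane and the membranes of organelles. Their genes carry the symbol Slc with a family number and a member number. Here they were taken as every gene with a probe set of its own whose symbol in the array annotation starts with Slc and a digit. The bile acid transporters Slc51a and Slc10a2 were left out by this rule. This gave 149 genes of 39 families, of 8251 genes that the annotation ties to at least 1 unshared probe set, read from 183 probe sets. For the 29 genes with more than 1 probe set the brightest was used. Of the 149 genes, 137 were bright enough to test, and 12 lay at or near background on nearly all arrays. The symbol rule also brings in 3 genes that are not transporters, the scaffold genes Slc9a3r1 and Slc9a3r2 and the adaptor gene Slc4a1ap.

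The samples were epithelium of the mouse ileum, where the small intestine ends, taken from tissue by laser capture. Their RNA was amplified in 2 rounds and hybridised to Affymetrix MG_U74Av2 oligonucleotide arrays. By their titles, 6 arrays were WT, 5 adenoma (a benign tumour) and 5 carcinoma (an invasive tumour), and all titles share the prefix m1. The genotype and age of the mice, any treatment, the way regions were picked and the arrays that share an animal were not stated. Where arrays share an animal, the p-values measure only the spread between captures and are too small. The number of arrays limits the precision.

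In the ileum, absorptive enterocytes carry solute carriers on the brush border, which faces the gut lumen, and others on the basolateral side, which faces the blood. The sodium-coupled and exchange carriers of the brush border take up glucose, amino acids, phosphate and vitamins, and facilitative carriers pass sugars on. Other members serve every cell, such as the carriers of the mitochondrial inner membrane and the nucleotide sugar carriers of the Golgi. Cancer cells of many tissues are known for high levels of the facilitative glucose transporter Slc2a1 and of some amino acid transporters.

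Signals are the deposited probe set values on a linear scale. For fold changes, a floor of 46.9 was set (the 25th percentile over the whole table), and dimmer values were raised to it before taking log2. Each log2 fold change comes with its standard error after ±, and with limma's adjusted p over all 7455 genes tested and a threshold of 0.05. Where most or all arrays of the lower group sit at the floor, the fold is only a lower bound, written as at least. Signals of different probe sets do not order transcripts by abundance. In captured tissue, fewer cells of a type and less RNA per cell cannot be told apart.

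In both tumour groups the share of solute carriers that fell was above that of all genes, and the share that rose was close to it. The difference in shares was not tested. In adenoma against WT, limma called 20 of 137 tested solute carriers (14.6%, beside 8.28% of all genes), and in carcinoma 26 (19.0%, beside 9.05%). In adenoma, 14 of the 137 tested solute carriers (10.2%) were lower by limma, beside 4.25% of all genes, and 6 (4.38%) were higher, beside 4.02%. In carcinoma, 19 (13.9%) were lower, beside 4.9% of all genes, and 7 (5.11%) were higher, beside 4.16%. The median log2 fold change of the 137 was -0.21 in adenoma and -0.23 in carcinoma, and that of all genes was -0.14 in both. Without the filter on dim genes, 18 of the 149 (12.1%) were called in adenoma and 23 (15.4%) in carcinoma, beside 7.39% and 8.31% of all genes. Every adenoma array lay above every WT array in 4 solute carriers (2.92%, beside 3.06% of all genes) and below in 7 (5.11%, beside 2.74%). For carcinoma these were 6 (4.38%, beside 3.13%) and 15 (10.9%, beside 3.15%). Both comparisons use the same 6 WT arrays, so their values are given side by side and not as separate evidence.

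The split of higher and lower depended on how the arrays were scaled. As deposited, 30.0% of the solute carriers called in adenoma and 26.9% of those called in carcinoma were higher, beside 48.6% and 45.9% of all genes called. Quantile normalization gave 37.5% in adenoma and 38.9% in carcinoma, beside 62.6% and 58.8%. Aligning the array medians gave 46.7% and 43.5%, beside 75.8% and 73.7%. The share of higher calls thus moved with the scaling over all genes as well. The latter moved the median of all genes from -0.14 to 0.12 in adenoma and from -0.14 to 0.15 in carcinoma. It moved the median of the solute carriers to 0.06, a change of sign, and to -0.02. No called solute carrier changed direction under any alternative run.

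Measures of the arrays themselves also differed between the groups. The mean log2 signal of the spiked-in control transcripts ran from 12.44 to 14.73 in WT, from 11.38 to 13.47 in adenoma and from 11.56 to 12.70 in carcinoma. No tumour array reached WT 1, WT 2, WT 4 or WT 5. The log2 ratio of 3' to 5' Gapdh signal, a measure of RNA length, was 4.09 to 5.02 in WT, 5.52 to 6.12 in adenoma and 4.95 to 6.45 in carcinoma. Without those 4 WT arrays, 5 solute carriers were lower and 3 higher in adenoma (5.84% together, beside 2.63% of all genes), and 6 were lower and 3 higher in carcinoma (6.57%, beside 2.91%). With the Gapdh ratio as a covariate, which separates WT from every tumour array but carcinoma 4, only Slc27a2 and Slc1a1 stayed called in each comparison (1.46%, beside 0.939% of all genes in adenoma and 1.34% in carcinoma).

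Markers of epithelium were present in every group. The list of 12 epithelial genes, among them the adhesion gene Epcam and the keratins Krt8 and Krt19, was tested in full, and none of the 12 lay at the floor throughout a group. Its summed signal ran from 66762.6 to 166046 in WT, 62564.9 to 93404.9 in adenoma and 44182.9 to 108918 in carcinoma, and 1 gene fell in each tumour group, Cdx1 in adenoma and Krt20 in carcinoma. Markers of absorptive enterocytes fell further than the tested solute carriers as a set. Their median log2 fold change was -1.18 in adenoma and -1.91 in carcinoma, beside -0.21 and -0.23. Of 14 markers, 4 fell in adenoma and 7 in carcinoma, beside 4.25% and 4.9% of all genes, and none rose. Their summed signal ran from 16262.3 to 88167.8 in WT, 3698.9 to 50484.8 in adenoma and 2103.8 to 6676.3 in carcinoma. The lipid transfer gene Mttp was at the floor on all carcinoma arrays and was not among the called markers. The part of these markers in the fall of the solute carriers was not tested.

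**Figure D1:**
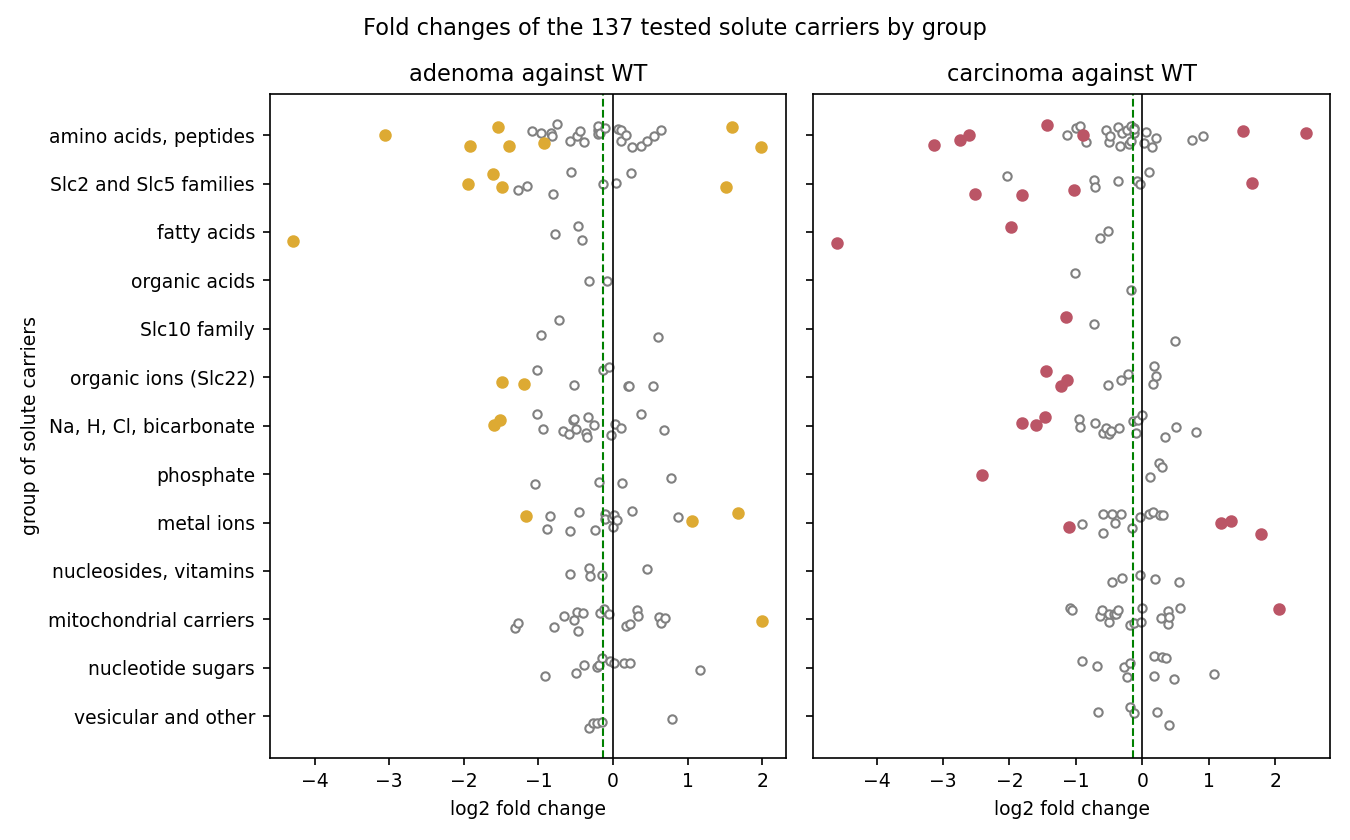
Log2 fold change (horizontal axis) of each of the 137 tested solute carriers, by group of substrates (vertical axis), in adenoma (left) and carcinoma (right) against WT. Filled points passed an adjusted p of 0.05, the dashed line is the median of all genes (-0.14), and the points farthest to the left are Slc27a2 at -4.29 and -4.60.

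The fatty acid transporter family Slc27 held the largest fall. Its members bring long-chain fatty acids into the cell and join them to coenzyme A. Slc27a2, which activates very long chain fatty acids, had WT signals from 659.7 to 2177.4 with a median of 1128.5. In adenoma its signals were 126.0, 8.0, 51.4, 21.8 and 7.0. In carcinoma they were 6.0, 7.1, 9.1, 6.6 and 18.4. Every WT array lay above every tumour array, and no carcinoma array reached the floor. Slc27a2 was at least 19.5-fold lower in adenoma, where 2 of 5 arrays were above the floor (log2 -4.29 ± 0.33, limma adjusted p = 8.62e-08). It was at least 24.2-fold lower in carcinoma (-4.60 ± 0.33, adjusted p = 2.24e-08).

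Slc27a4, the family member known as the main one of the small intestine, was lower on every carcinoma array than on every adenoma array. This was so for 0.376% of all genes. Its WT signals ran from 192.9 to 572.9 with a median of 356.2. In adenoma they were 209.2, 357.9, 271.2, 330.7 and 197.6, within the WT range. In carcinoma they were 48.5, 82.4, 40.7, 190.3 and 165.0, below every WT and every adenoma array. It was 3.95-fold lower in carcinoma than in WT (-1.98 ± 0.39, adjusted p = 0.00268), and its difference in adenoma was -0.42 ± 0.39 (adjusted p = 0.545). The carcinoma call was lost with the spike-in signal or the Gapdh ratio as a covariate. It was also lost without the 4 WT arrays of highest spike-in signal (limma adjusted p up to 0.265 in these alternatives). Between carcinoma and adenoma the difference was -1.56 ± 0.41, with a 95% interval of -2.42 to -0.71, which missed the threshold after adjustment over all genes (unadjusted p = 0.00116, adjusted p = 0.490). Slc27a3 and Slc27a5 were at -0.46 and -0.78 in adenoma and -0.52 and -0.63 in carcinoma, and neither passed. Slc27a1 was too dim to test.

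The families grouped as amino acid and peptide transporters held 32 genes on the array, of which 30 were tested. In each tumour group 5 of the 30 fell and 2 rose. Over all genes, 4.25% fell and 4.02% rose in adenoma, and 4.9% and 4.16% in carcinoma. The grouping went by family number, so the 5 include the serotonin transporter Slc6a4. Slc1a1, a sodium-coupled carrier of glutamate, aspartate and cysteine, had WT signals from 152.2 to 978.7 with a median of 447.6. In adenoma its signals were 35.3, 18.5, 5.7, 23.2 and 79.4. In carcinoma they were 18.3, 16.4, 61.2, 16.7 and 23.1. All tumour arrays lay below all WT arrays, and a lone array in each tumour group stood above the floor. Slc1a1 was at least 8.35-fold lower in adenoma (-3.06 ± 0.39, adjusted p = 4.71e-05) and at least 8.79-fold lower in carcinoma (-3.14 ± 0.39, adjusted p = 3.32e-05). A dimmer probe set of the same gene differed less, by -0.73 in adenoma (unadjusted p = 0.0520) and -0.88 in carcinoma (unadjusted p = 0.0227).

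The promoters of Slc27a2 and Slc1a1, called under every alternative, and of Slc38a4, which had the largest rise in carcinoma, are shown as the 250 bases before the RefSeq start (build GRCm38.p6, 5′ to 3′ on the gene's strand). They are Slc27a2 at chr2:126552774-126553023 (plus strand), Slc1a1 at chr19:28834885-28835134 (plus) and Slc38a4 at chr15:97055957-97056206 (minus, the first of its 3 listed starts). Capitals mark matches on either strand to GGGCGG (a GC box) or ACGTG (the core of hypoxia response elements).
Slc27a2: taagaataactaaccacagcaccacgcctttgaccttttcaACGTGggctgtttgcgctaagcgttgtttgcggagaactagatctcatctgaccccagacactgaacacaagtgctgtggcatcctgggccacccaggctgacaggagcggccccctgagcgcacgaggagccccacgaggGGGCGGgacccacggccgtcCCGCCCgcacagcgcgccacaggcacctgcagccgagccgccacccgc
Slc1a1: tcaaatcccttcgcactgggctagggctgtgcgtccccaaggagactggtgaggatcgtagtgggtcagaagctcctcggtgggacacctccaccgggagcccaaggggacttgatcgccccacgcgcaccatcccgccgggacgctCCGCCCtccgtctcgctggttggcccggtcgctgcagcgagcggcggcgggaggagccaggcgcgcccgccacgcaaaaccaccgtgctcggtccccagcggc
Slc38a4: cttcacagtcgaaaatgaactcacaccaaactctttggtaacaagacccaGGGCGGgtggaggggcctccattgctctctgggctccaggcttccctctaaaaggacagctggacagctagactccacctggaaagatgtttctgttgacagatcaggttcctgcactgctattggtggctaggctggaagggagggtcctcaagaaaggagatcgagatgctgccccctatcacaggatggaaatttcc

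The Slc27a2 window held GC boxes 68 and 48 bases before the start and ACGTG 209 bases before it, the Slc1a1 window a GC box at 103 bases and the Slc38a4 window a GC box at 200 bases. A promoter was listed for 17 of the 19 solute carriers called lower in a tumour group and 6 of the 7 called higher. GGGCGG was present in 10 of the 17 and 4 of the 6, beside 32.9% of 27025 promoters of the same length. ACGTG was present in 4 of the 17 and 1 of the 6 (that of Slc2a1), beside 16.6%. The TATA box TATAAA was found in 1 of the 17 and 0 of the 6, beside 13.0%. GTTAAT, a half-site of the gut factor HNF1, was in none of these windows, beside 6.52%, and CAAAGTC, a core of HNF4 sites, was in 1 (Slc3a1), beside 3.80%. The windows also differed in base content. Their median GC content was 64.0% in the 17 and 64.8% in the 6, beside 52.0% in all promoters. The shares of matches were not adjusted for this, so they do not show a motif particular to these genes. These are letter matches and no measure of binding.

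Slc3a1 and Slc7a9 are the heavy and light chain of a brush border exchanger that takes up cystine and the basic amino acids. Both were lower in both tumour groups. Slc3a1 had WT signals from 308.9 to 817.3 with a median of 499.4. Its signals were 344.5, 73.1, 281.0, 257.4 and 177.9 in adenoma and 34.9, 178.5, 67.8, 77.2 and 69.7 in carcinoma. The adenoma arrays overlapped WT through adenoma 1, and the carcinoma arrays all lay below WT. Slc3a1 was 2.63-fold lower in adenoma (-1.39 ± 0.40, adjusted p = 0.0382) and 6.68-fold lower in carcinoma (-2.74 ± 0.40, adjusted p = 0.000170). From adenoma to carcinoma it differed by -1.35 ± 0.42, with a 95% interval of -2.22 to -0.47 (unadjusted p = 0.00464, adjusted p = 1), short of the threshold.

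Slc7a9 had WT signals from 613.7 to 2059.5 with a median of 996.0. Its adenoma signals were 758.1, 212.0, 402.8, 73.3 and 392.4, and its carcinoma signals 294.1, 184.3, 259.4, 114.7 and 107.8. As for its partner, adenoma 1 reached into the WT range and no carcinoma array did. It was 3.79-fold lower in adenoma (-1.92 ± 0.49, adjusted p = 0.0200) and 6.08-fold lower in carcinoma (-2.61 ± 0.49, adjusted p = 0.00189). The adenoma call was lost without adenoma 2 (adjusted p = 0.0540), and that of Slc3a1 without any 1 of 5 arrays (WT 1, WT 2, WT 4, adenoma 2 and adenoma 5, adjusted p up to 0.107). The adenoma call of Slc3a1 was also lost in 9 of 13 alternatives (adjusted p up to 0.647), among them quantile normalization, aligned medians, no filter and a replicate block, in which arrays of 1 number share a term. Its carcinoma call was lost with the Gapdh covariate alone.

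The other heavy chain, Slc3a2, serves exchangers of the basolateral side and of dividing cells. It was at 0.11 ± 0.28 in adenoma and -0.17 ± 0.28 in carcinoma, and did not pass in either. Its light chains did not pass either. Slc7a5, the large neutral amino acid exchanger, was at 0.45 and 0.75 (adjusted p = 0.422 and 0.162). Slc7a6 and Slc7a7, which exchange basic for neutral amino acids, were at 0.06 and -0.34, and at -0.20 and -0.18. A dimmer probe set of Slc7a6 was at 0.64 and 0.53, in carcinoma with the opposite sign (limma unadjusted p = 0.0657 and 0.124). Slc7a11, the cystine-glutamate exchanger, was at -0.57 and -0.50 with most arrays at the floor, and Slc7a8 was too dim to test. The 95% intervals of Slc3a2 were -0.48 to 0.70 in adenoma and -0.76 to 0.42 in carcinoma.

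Against the falling brush border carriers, 2 carriers of neutral amino acids rose. Slc38a4, a sodium-coupled carrier of small neutral amino acids, had WT signals from 122.9 to 367.3 with a median of 217.8. Its signals were 538.3, 1460.5, 589.4, 798.9 and 964.0 in adenoma and 2628.7, 632.4, 904.0, 910.9 and 1379.7 in carcinoma. Every tumour array lay above every WT array. It was 3.97-fold higher in adenoma (1.99 ± 0.40, adjusted p = 0.00323) and 5.54-fold higher in carcinoma (2.47 ± 0.40, adjusted p = 0.000414).

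Slc1a4, an exchanger of alanine, serine and cysteine, had WT signals from 629.3 to 1096.5 with a median of 875.4. Its signals were 2359.8, 2896.5, 2454.3, 2247.0 and 2932.0 in adenoma and 4530.4, 2569.9, 1806.4, 1892.8 and 2036.6 in carcinoma. The WT and tumour arrays did not overlap. Slc1a4 was 3.03-fold higher in adenoma (1.60 ± 0.26, adjusted p = 0.000556) and 2.85-fold higher in carcinoma (1.51 ± 0.26, adjusted p = 0.000779). Slc38a5, a glutamine carrier, went the other way, from a WT median of 716.2 to 255.3 to 516.5 in adenoma and 259.7 to 522.5 in carcinoma. It was 1.89-fold lower in adenoma (adjusted p = 0.0395) and 1.85-fold lower in carcinoma (adjusted p = 0.0441). Both Slc38a5 calls were lost in 8 of 13 alternatives, among them aligned medians and the replicate block (adjusted p up to 0.650 and 0.577).

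Slc6a4, the serotonin transporter, which clears serotonin released by enteroendocrine cells, fell in both tumour groups. Its WT signals ran from 325.4 to 669.6 with a median of 487.9. They were 156.7, 233.9, 229.7, 186.0 and 73.9 in adenoma and 170.2, 170.0, 155.5, 213.5 and 175.5 in carcinoma, all below WT. It was 2.91-fold lower in adenoma (-1.54 ± 0.30, adjusted p = 0.00264) and 2.70-fold lower in carcinoma (-1.43 ± 0.30, adjusted p = 0.00422). The probe set used is of a kind that can also bind related transcripts. The other probe set of the gene, dimmer, differed by -2.68 and -3.18. On the same arrays, enteroendocrine markers fell in 4 of 11 in each tumour group, beside 4.25% of all genes in adenoma and 4.9% in carcinoma. These were Pcsk1, Chgb and Gip in both, with Ghrl in adenoma and Chga in carcinoma. The summed signal of the 11 was 7071.6 to 10035.6 in WT, 3052.3 to 4206.6 in adenoma and 3484.1 to 3892.3 in carcinoma. The hormone genes Cck and Gcg were at the floor in carcinoma and were not called. The part of these markers in the Slc6a4 result was not tested.

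**Figure D2:**
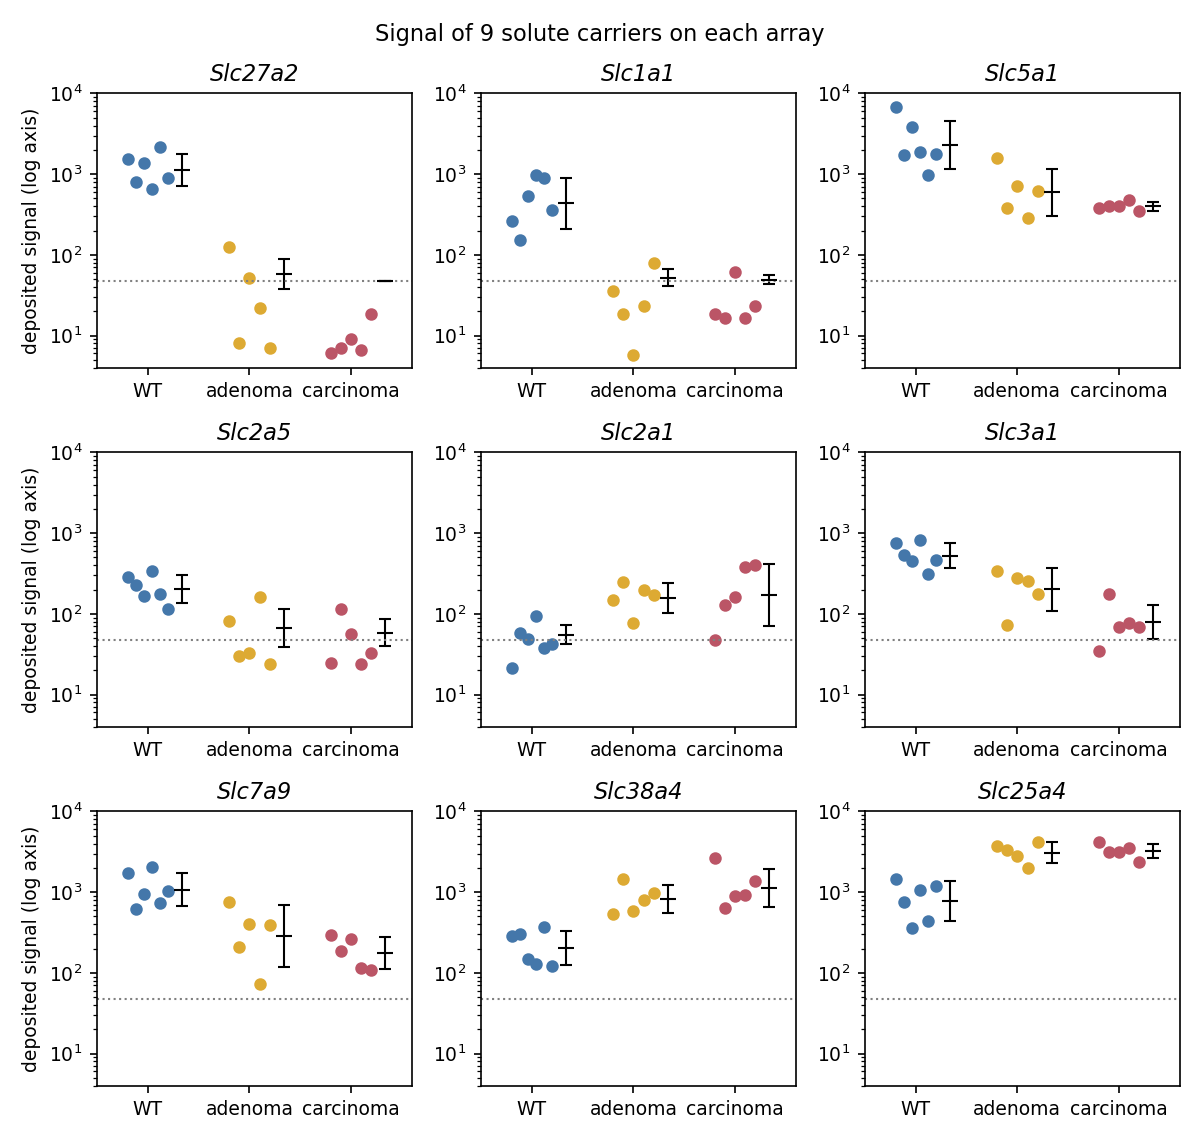
Deposited signal (log axis, probe set units) of 9 solute carriers on each array, by group (horizontal axis: 6 WT, 5 adenoma, 5 carcinoma). Points are arrays, the bar beside them is the mean ± SD of the floored log2 values, and the dotted line is the floor of 46.9. Slc27a2 and Slc1a1 drop from clear WT signals to the floor, and Slc38a4 and Slc25a4 rise without overlap.

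The Slc2 and Slc5 families, which hold the sugar transporters, were tested together with 2 other sugar carriers. Of these 11 genes, 3 fell and 1 rose in each tumour group, with a median of -0.80 in adenoma and -0.71 in carcinoma. Over all genes, 8.28% passed in adenoma and 9.05% in carcinoma, in either direction. Slc5a1, the sodium-glucose cotransporter of the brush border, had WT signals from 985.6 to 6770.8 with a median of 1833.1. Its signals were 1590.7, 376.6, 703.7, 284.0 and 625.1 in adenoma and 376.9, 406.0, 405.1, 484.2 and 345.5 in carcinoma. Only adenoma 1 reached into the WT range, and the 5 carcinoma arrays lay close together. Slc5a1 was 3.86-fold lower in adenoma (-1.95 ± 0.45, adjusted p = 0.0104) and 5.73-fold lower in carcinoma (-2.52 ± 0.45, adjusted p = 0.00117).

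Slc2a5, the fructose transporter of the brush border, had WT signals from 115.6 to 339.8 with a median of 200.7. Its signals were 82.5, 30.0, 32.5, 160.1 and 23.9 in adenoma and 24.3, 113.9, 56.4, 24.0 and 33.0 in carcinoma. All arrays but adenoma 4 lay below WT, and 3 of 5 arrays in each tumour group were under the floor. Slc2a5 was at least 3.05-fold lower in adenoma (-1.61 ± 0.37, adjusted p = 0.0101) and at least 3.53-fold lower in carcinoma (-1.82 ± 0.37, adjusted p = 0.00354). Slc2a2, the basolateral sugar carrier, was at -1.15 in adenoma and -2.03 in carcinoma and did not pass (adjusted p = 0.0692 in carcinoma), with WT signals spread from 60.1 to 1367.1. Slc5a6, which belongs to the sodium-glucose family but carries biotin and pantothenate, was 2.81-fold lower in adenoma (-1.49 ± 0.30, adjusted p = 0.00326) and 2.03-fold lower in carcinoma (-1.02 ± 0.30, adjusted p = 0.0358). Its tumour signals of 93.4 to 358.7 all lay below its WT signals of 527.5 to 904.3. The carcinoma call of Slc5a6 was lost in 7 of 13 alternatives, among them both other scalings and the replicate block (adjusted p up to 0.509).

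Slc2a1, the facilitative glucose transporter, was the member of these families that rose. It was dim in WT, at 21.2 to 94.0 with a median of 45.7, and 3 of 6 WT arrays were above the floor. Its signals were 148.7, 251.2, 78.0, 194.9 and 172.5 in adenoma and 47.2, 129.4, 160.5, 385.5 and 406.5 in carcinoma. The groups overlapped, with WT 4 above adenoma 3, and WT 2, WT 3 and WT 4 above carcinoma 1. Slc2a1 was 2.86-fold higher in adenoma (1.52 ± 0.46, adjusted p = 0.0458) and 3.13-fold higher in carcinoma (1.65 ± 0.46, adjusted p = 0.0282). The adenoma call was lost without any 1 of 11 of the 16 arrays (adjusted p up to 0.116), and the carcinoma call without WT 1, carcinoma 4 or carcinoma 5 (up to 0.0916). Slc2a3, another facilitative glucose carrier, was at 0.24 and -0.04, and Slc2a4, the insulin-responsive one, at -1.27 and -0.37. Neither passed. Slc2a3 was above the floor on only 3 arrays of each group, which limits its fold. A second probe set of each of these genes was not compared.

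Members of the Slc22 family, grouped as organic cation and anion carriers, fell in 2 of 9 tested in adenoma, beside 4.25% of all genes. In carcinoma 3 of 9 fell, beside 4.9%. The genes were Slc22a5, the carnitine transporter, Slc22a21, a close relative of it, and Slc22a4, a transporter of ergothioneine. In the mouse gene table of GRCm38.p6 these 3 lie next to each other on chromosome 11, in the order Slc22a5, Slc22a21 and Slc22a4. Their sequences are related, and how far their probe sets read each other's transcripts was not tested.

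Slc22a21 had WT signals from 187.3 to 287.2, adenoma signals of 106.2, 177.2, 38.7, 88.0 and 40.5 and carcinoma signals of 117.3, 86.2, 116.0, 78.6 and 129.5. It was below WT on every tumour array, by 2.79-fold in adenoma (-1.48 ± 0.31, adjusted p = 0.00537) and 2.20-fold in carcinoma (-1.14 ± 0.31, adjusted p = 0.0274). The carcinoma call was lost without WT 4, carcinoma 2 or carcinoma 4 (adjusted p up to 0.0777), and in 7 of 13 alternatives (up to 0.238), among them both other scalings and the replicate block. Slc22a5 had WT signals from 143.7 to 228.1, adenoma signals of 115.4, 72.9, 41.6, 204.1 and 47.8 and carcinoma signals of 23.9, 30.1, 116.3, 91.7 and 66.3. Adenoma 4 stood in the WT range. Slc22a5 was 2.28-fold lower in adenoma (-1.19 ± 0.36, adjusted p = 0.0470) and 2.73-fold lower in carcinoma (-1.45 ± 0.36, adjusted p = 0.0148). Its adenoma call was lost in 9 of 13 alternatives, among them both other scalings (adjusted p up to 0.803). Slc22a4 was at the floor on all carcinoma arrays and at least 2.33-fold lower there (adjusted p = 0.0475). In adenoma, where 2 of 5 arrays were above the floor, it was at -1.02 ± 0.37 (adjusted p = 0.106). The carcinoma call of Slc22a4 was lost in 7 of 11 alternatives (adjusted p up to 0.857).

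Carriers of sodium, protons, chloride, bicarbonate and sulfate mostly did not pass. Of 18 tested, 2 fell in adenoma and 3 in carcinoma, beside 4.25% and 4.9% of all genes. None rose, beside 4.02% and 4.16%. The 18 include the scaffold and adaptor genes Slc9a3r1, Slc9a3r2 and Slc4a1ap, which are not transporters and were not called. Slc26a2, a sulfate transporter, was at least 3.02-fold lower in both groups (-1.59 ± 0.40 in each, adjusted p = 0.0174 and 0.0153). Its WT signals ran from 80.3 to 407.3, and no tumour array was above 47.0 except adenoma 1 at 98.5 and carcinoma 2 at 98.7. Slc12a5, a potassium-chloride cotransporter known best from neurons, was 2.87-fold lower in adenoma (adjusted p = 0.0139) and at least 3.51-fold lower in carcinoma (adjusted p = 0.00322), where 1 of 5 arrays was above the floor. Slc4a8, a sodium-driven chloride-bicarbonate exchanger, was at the floor on all carcinoma arrays and at least 2.77-fold lower there (adjusted p = 0.0368). In adenoma it was at the floor on 4 arrays and at 302.8 on adenoma 4, above the highest WT array, and at -0.93 ± 0.43 (adjusted p = 0.201).

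Slc12a2, the sodium-potassium-chloride cotransporter that feeds intestinal chloride secretion, was bright in all groups, from 3897.8 to 15280.1, and at -0.67 in adenoma and -0.01 in carcinoma without passing. Slc9a3r1, the brush border scaffold of ion exchangers, was at -0.34 and -0.71 and did not pass (adjusted p = 0.203 in carcinoma). Slc34a2, the sodium-phosphate cotransporter of the brush border, was at least 5.32-fold lower in carcinoma (-2.41 ± 0.57, adjusted p = 0.0113), where 2 of 5 arrays were above the floor and its signals were 38.9, 13.0, 27.1, 51.4 and 53.2. Its WT signals spread from 73.4 to 1126.0, and its adenoma signals were 259.4, 90.9, 164.8, 48.2 and 176.2 (-1.04 ± 0.57, adjusted p = 0.296). Between carcinoma and adenoma it differed by -1.37 ± 0.60 (unadjusted p = 0.0340, adjusted p = 1).

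Of the 3 members of the bile acid family Slc10 that were counted here, Slc10a6, a transporter of sulfated steroids, was 2.22-fold lower in carcinoma (-1.15 ± 0.34, adjusted p = 0.0377) and at -0.96 ± 0.34 in adenoma (adjusted p = 0.0881). Its WT signals ran from 188.2 to 358.1 and its carcinoma signals were 33.8, 133.8, 184.2, 130.0 and 220.8. The carcinoma call was lost in 8 of 13 alternatives, among them both other scalings and the replicate block (adjusted p up to 0.392).

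Metal carriers held most of the remaining rises, with 2 of 16 higher in adenoma and 3 of 16 in carcinoma, and 1 of 16 lower in each. Over all genes, 4.02% were higher and 4.25% lower in adenoma, and 4.16% and 4.9% in carcinoma. Slc39a6, a zinc importer, had WT signals from 189.7 to 467.1 with a median of 336.4. Its signals were 1684.5, 836.0, 917.3, 522.1 and 1323.3 in adenoma and 1782.8, 1276.1, 996.3, 894.2 and 653.3 in carcinoma, all above WT. It was 3.19-fold higher in adenoma (1.67 ± 0.34, adjusted p = 0.00400) and 3.45-fold higher in carcinoma (1.79 ± 0.34, adjusted p = 0.00217). Slc39a8, an importer of zinc and manganese, was 2.28-fold higher in carcinoma (1.19 ± 0.31, adjusted p = 0.0221) and at 0.87 ± 0.31 in adenoma (adjusted p = 0.0972). The carcinoma call was lost without carcinoma 1, carcinoma 2 or carcinoma 3 (adjusted p up to 0.0643).

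Slc41a1, a magnesium transporter, rose from a WT range of 126.1 to 481.5 to 457.4 to 825.3 in adenoma and 569.3 to 957.6 in carcinoma. It was 2.08-fold higher in adenoma (1.06 ± 0.32, adjusted p = 0.0455) and 2.52-fold higher in carcinoma (1.34 ± 0.32, adjusted p = 0.0112). Slc30a1, the zinc exporter of the plasma membrane, was 2.24-fold lower in adenoma (-1.16 ± 0.33, adjusted p = 0.0380) and 2.15-fold lower in carcinoma (-1.11 ± 0.33, adjusted p = 0.0446). The Slc30a1 calls were lost in 9 of 13 alternatives in adenoma and 10 of 13 in carcinoma, among them both other scalings and the replicate block (adjusted p up to 0.417 and 0.349). Slc39a4, the zinc importer of the enterocyte brush border, was at 0.25 and 0.32 and did not pass, and its second probe set was not compared. The copper importer Slc31a1 was bright throughout, from 8882.5 to 32188.2, and was at -0.01 and -0.45.

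Among 19 mitochondrial carriers tested, 1 passed, beside 8.28% of all genes in adenoma and 9.05% in carcinoma. This was Slc25a4, upward in each tumour group. It encodes an adenine nucleotide translocase, which exchanges ADP for ATP across the inner membrane. Its WT signals ran from 357.0 to 1471.5 with a median of 904.7. They were 3779.9, 3332.3, 2779.8, 1970.4 and 4156.4 in adenoma and 4131.5, 3153.7, 3164.9, 3502.8 and 2394.6 in carcinoma, all above WT. Slc25a4 was 4.01-fold higher in adenoma (2.00 ± 0.35, adjusted p = 0.00100) and 4.16-fold higher in carcinoma (2.06 ± 0.35, adjusted p = 0.000625). The ornithine carrier Slc25a15 was among the brightest members, from 1246.3 to 18108.1, and was at -1.32 ± 0.63 and -1.06 ± 0.63 (adjusted p = 0.220 and 0.319), a difference within its wide spread between arrays.

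No gene was called in 3 further groups, beside 8.28% of all genes in adenoma and 9.05% in carcinoma, and groups this small would hold few at those shares. They were 11 nucleotide sugar and acetyl-CoA carriers, from -0.92 to 1.17 in adenoma and -0.91 to 1.08 in carcinoma, 5 nucleoside and vitamin carriers, from -0.58 to 0.46 and -0.46 to 0.55, and 5 vesicular, choline and other carriers, from -0.32 to 0.80 and -0.66 to 0.40. The last include Slc44a1, a choline transporter with signals from 1568.6 to 5823.7, at 0.80 and 0.22. The taurine transporter Slc6a6 was bright too, from 1983.4 to 4981.4, and at -0.20 and -0.36. The organic acid carriers, with 2 tested, held no called gene either. Of these, the monocarboxylate carrier Slc16a1, which moves lactate and butyrate, was dim, from 5.1 to 99.6, and at -0.08 and -0.17. Slc16a8 was at -0.32 and -1.01.

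**Figure D3:**
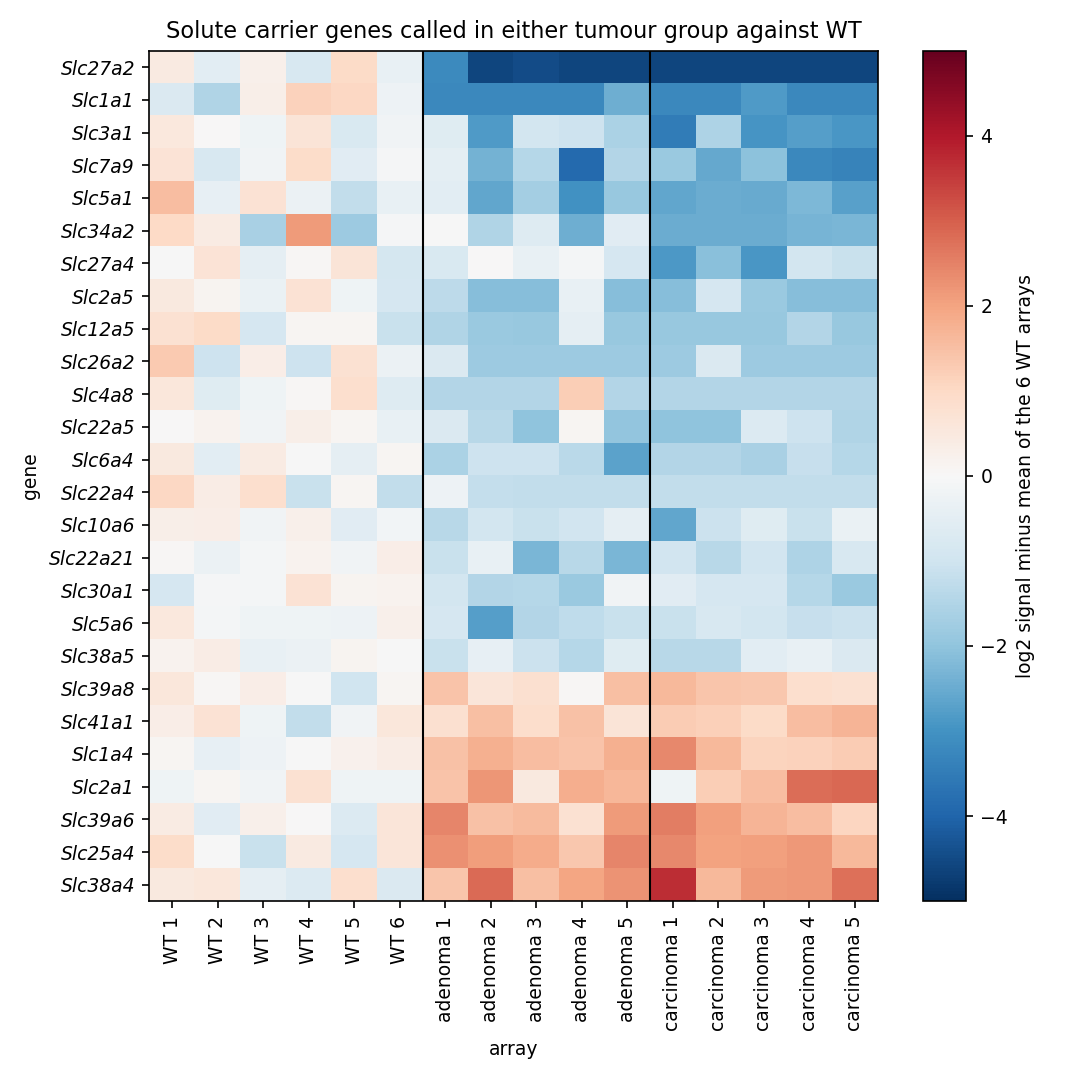
Log2 signal minus the mean of the 6 WT arrays (colour) for the 26 solute carriers called in either tumour group (rows) on the 16 arrays (columns). The 19 lower genes lie above and the 7 higher genes below, and adenoma 4 lies near WT for Slc2a5 and Slc22a5 and above it for Slc4a8, while Slc7a9 is lowest there.

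Adenoma and carcinoma differed from each other in no solute carrier past the threshold. By limma, 0 of 137 passed, beside 0.0268% of all genes, and 3 (Slc27a4, Slc34a2 and Slc3a1, all lower in carcinoma) had an unadjusted p under 0.05. That count is no larger than chance alone would give among 137 genes, and the share of all genes at this cut was not counted. No other tool was run. Slc27a4 was the member whose carcinoma and adenoma arrays did not overlap, a pattern shown downward by 0.376% of all genes. None showed it upward, beside 0.161%. The median difference of the 137 was 0.00 with all genes at 0.01. The genes that passed against WT in carcinoma and not in adenoma were therefore not shown to differ between the tumour groups. Apart from those 3 genes, each had an unadjusted p above 0.05 in the direct comparison.

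**Figure D4:**
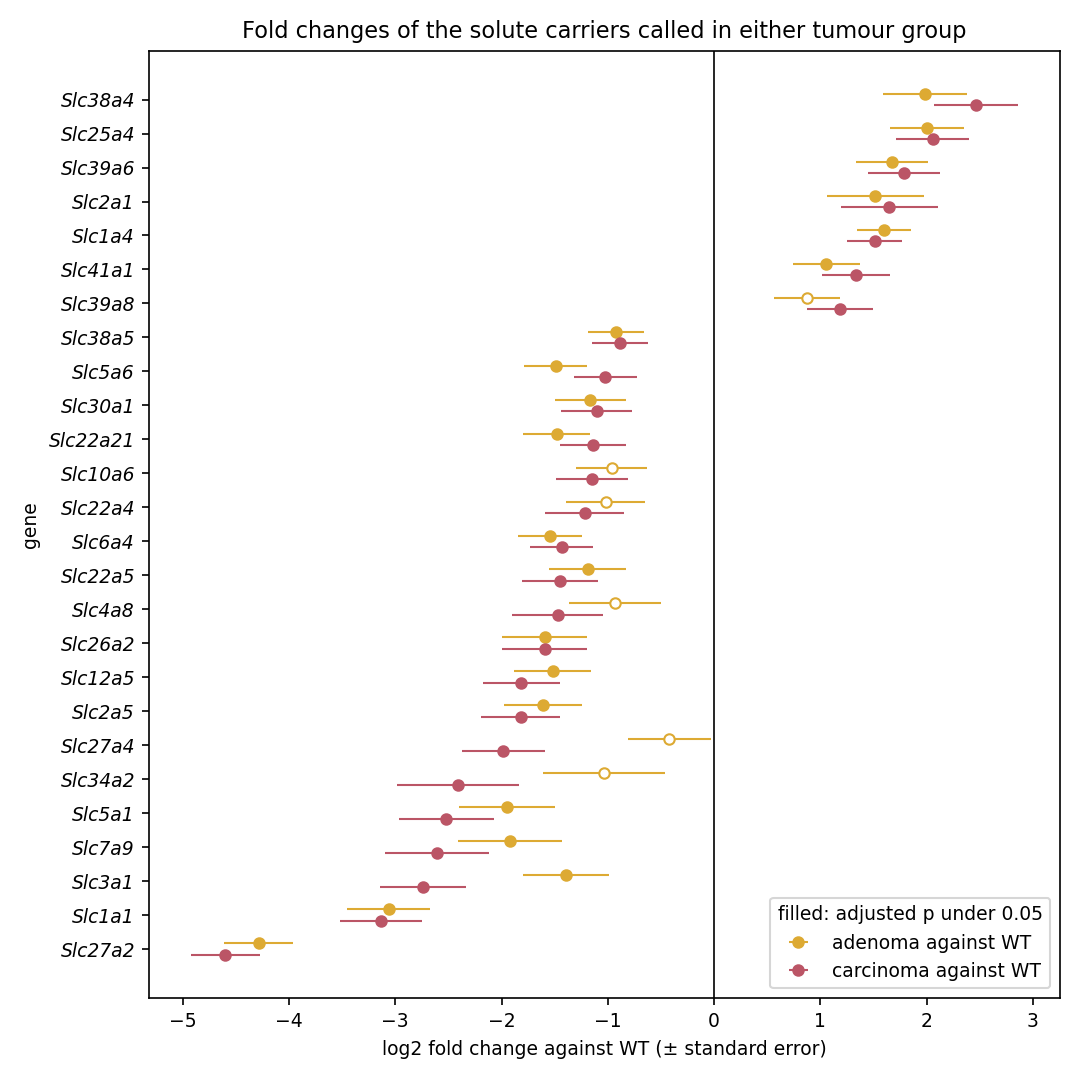
Log2 fold change against WT (horizontal axis, ± standard error) of the 26 solute carriers called in either tumour group (vertical axis). Filled points passed an adjusted p of 0.05, and open points did not. Slc27a4, at -0.42 in adenoma and -1.98 in carcinoma, shows the widest gap between the tumour groups.

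Other membrane transporters were followed in a list of 48 ABC transporters, ion pumps, water channels and ion channel genes, of which 45 were tested. In adenoma 2 rose and 5 fell, and in carcinoma 3 rose and 5 fell, with medians of -0.36 and -0.37. Over all genes, 8.28% passed in adenoma and 9.05% in carcinoma, in either direction. Fxyd3, a regulator of the sodium pump, rose by 2.93 ± 0.35 in adenoma and 2.90 ± 0.35 in carcinoma, and the cholesterol exporter Abcg1 by 1.76 ± 0.45 and 1.70 ± 0.45. Clca1, a goblet cell protein listed with the channels, was at -2.70 ± 0.34 and -3.76 ± 0.34. The ATP-binding cassette genes Abcc6 (-1.65 ± 0.32 and -1.43 ± 0.32) and Abcc8 (-1.92 ± 0.30 and -1.20 ± 0.30) fell in both, the sodium pump subunit Atp1b2 (-1.57 ± 0.42) in adenoma, and the drug exporters Abcc2 (-1.97 ± 0.38) and Abcg2 (-2.65 ± 0.57) in carcinoma. Of 10 tested partners and scaffolds of solute carriers, 1 fell in adenoma and 2 in carcinoma. These were the fatty acid binding protein Fabp2 (-2.16 ± 0.63 and -3.43 ± 0.63) and, in carcinoma, the brush border scaffold Pdzk1 (-2.71 ± 0.74).

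Markers of other cells in the captured tissue moved too, beside 8.28% of all genes called in adenoma and 9.05% in carcinoma. Of 15 lymphocyte and plasma cell markers, 4 fell in adenoma and 2 in carcinoma. The summed signal of the list was 2592.4 to 4360.5 in WT, 1560.2 to 2276.9 in adenoma and 1562.9 to 2893.8 in carcinoma. Cd3e and Cd3g, neither of them called, were at the floor in both tumour groups. Mast cell markers rose in 3 of 8 in each, from a summed 1349.3 to 2365.2 in WT to 4133.6 to 9116 in adenoma and 2439.9 to 4581.2 in carcinoma. Smooth muscle markers fell in 2 of 9 in each and rose in 1 in adenoma. Their summed signal ran from 5616.7 to 9447.9 in WT, 3818.6 to 7794.8 in adenoma and 3337.8 to 4151.6 in carcinoma. Fibroblast markers rose in 1 of 13 in adenoma and in 3 of 13 in carcinoma, where 1 fell, and endothelial markers rose in 2 and 1 of 9. Of 16 macrophage and neutrophil markers 1 fell in adenoma, and 0 of 3 erythrocyte and 0 of 4 neuron and glia markers passed in either comparison. Their part in the solute carrier results was not tested.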

How the data were processed

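The deposited values are probe set intensities on a linear scale for 12488 probe sets on 16 arrays, deposited by the authors. No source used here names the software behind them. Every array had a mean of 500.3 to 500.4 once 2% was trimmed at both ends, so the values count as scaled before deposit, and no further scaling was done. Array medians ranged between 126.8 and 234.2. Values were floored at 46.9 and log2 was taken. A gene was tested when 5 or more of the 16 arrays exceeded that floor, which left 7455 of 8251. Symbols came from the platform annotation, and all 149 solute carriers were found in the mouse gene table of GRCm38.p6. No 2 arrays held identical values.

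One model of all 3 groups was run in limma 3.58.1 (R 4.3.3) through lmFit and eBayes, leaving 13 residual degrees of freedom. Tests were two-sided with Benjamini-Hochberg adjustment over all genes tested. The script was tested on simulated data. Figures were drawn with matplotlib 3.10.9. The members, marker lists, substrate groups and tests were chosen with earlier results of these data known. Named were 5 preselected members, every member past the threshold, the heavy and light chains, the 5 brightest members, and from the other transporter and partner lists up to 6 genes past the threshold per comparison. Others named as a contrast or as a known brush border gene were chosen after their values were seen. The 13 alternatives were quantile normalization, aligned medians, other floors and filters, averaged probe sets, a replicate block, weighted arrays, a fit of 2 groups, the spike-in signal or Gapdh ratio as a covariate, and leaving out 4 WT arrays. Each array was also left out in turn.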

Additional observations from a re-analysis of the deposited data

Results flagged for a closer look

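An array stood far from the others of its group in 5 of 111 combinations of a named solute carrier and a group, judged by Dixon's ratio on log2 signals. Chance flags about 1 in 20 such groups. Slc4a8 read 302.8 on adenoma 4, against 46.1 on the next adenoma array. Slc10a6 read 33.8 on carcinoma 1, against 130 on the next. Slc26a2 read 98.7 on carcinoma 2, against 37.7. Slc1a1 read 61.2 on carcinoma 3, against 23.1, with the others under the floor. Slc39a8 read 313.8 on WT 5, against 619.5 on the next WT array.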

How the results depend on the processing

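Slc27a2 and Slc1a1 were called in both tumour groups under all 13 alternatives and with each of the 16 arrays left out. With single arrays left out, the solute carriers called ran from 4 to 6 higher and 10 to 16 lower in adenoma, and from 6 to 7 higher and 12 to 19 lower in carcinoma. The lowest count, 12 in carcinoma, came without carcinoma 2. In adenoma, against 6 higher and 14 lower, 8 were lower with medians aligned, 8 when the spike-in level entered as covariate, 2 (0 higher) when the Gapdh ratio did, and 5 (3 higher) without the 4 WT arrays. In carcinoma, against 7 higher and 19 lower, 11 were lower after quantile normalization, 9 with the spike-in covariate, 2 (0 higher) with the Gapdh covariate and 6 (3 higher) without the 4 WT arrays. The cause was not tested. Arrays of the same replicate number correlated from -0.27 to 0.40 in their deviations, so the numbers were not taken as pairs. With the replicate block, 6 were higher and 14 lower in adenoma and 7 and 17 in carcinoma, and 17 of the 20 and 21 of the 26 calls made without it remained. The block ended the calls of Slc3a1, Slc38a5 and Slc30a1 in adenoma and of Slc38a5, Slc5a6, Slc10a6, Slc22a21 and Slc30a1 in carcinoma. No alternative called a solute carrier between carcinoma and adenoma. Leaving out single arrays changed no call in 13 of 20 genes in adenoma and 17 of 26 in carcinoma. Besides those given above, calls were lost without any 1 of 13 arrays for Slc41a1 and Slc22a5, 9 for Slc30a1 and 7 for Slc38a5 in adenoma. In carcinoma this held for 13 arrays for Slc22a4, 12 for Slc30a1, 10 for Slc38a5, 8 each for Slc5a6 and Slc4a8, 7 for Slc10a6 and 3 for Slc22a21. Other alternatives ended the Slc41a1 call in adenoma in 5 of 13 and the Slc4a8 call in carcinoma in 5 of 12, and calls not named here or above in 1 to 4. Signals at the floor limit the folds of Slc27a2, Slc1a1, Slc2a5, Slc26a2, Slc12a5, Slc34a2, Slc4a8, Slc22a4 and Slc2a1.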
